A study of Homo sapiens with 24 samples.

Results

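The potassium channel genes described here, in SW872 cells (a human liposarcoma line), were chosen by name and by level: protein-coding GENCODE genes with a symbol that starts with KCN, selected on a mean count of at least 5 over the 24 libraries. This gave 62 of 96 such genes, out of 19997 genes tested, and they were 24 voltage-gated pore genes, 8 inward rectifiers, 10 tandem-pore (KCNK) genes, 5 calcium-activated genes (sodium-activated KCNT1 among them) and 15 auxiliary subunit genes. KCND3 was picked to name the set from earlier results of these libraries, which contrasted TAZ-CAMTA1 with TAZ4SA. Its values in comparisons that use either of those groups are therefore given as description, with no test, and counts of called genes in those comparisons cover the other 61 genes. At the threshold, KCNE1 (mean of 5.38 counts) and KCNT1 (5.67) were just inside, and KCNJ1 (4.21) and KCNJ2 (3.83) just outside. The 34 genes left out included 6 that were at 0 in every library. KCNG3, KCNJ10 and KCNQ1 reached a mean of 5 counts only with the YAP-TFE3 libraries, and KCNE1 only with those of YAP5SA and, separately, those labelled TAZ4SA. Their values in those groups are given with no test.

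Potassium channels let potassium leave or enter the cell down its gradient and so set the resting membrane potential and the length of electrical signals. Voltage-gated channels open on depolarization, inward rectifiers pass current mainly inward, tandem-pore channels carry background leak, and calcium-activated channels open when intracellular calcium rises. Auxiliary subunits (KCNAB, KCNE, KCNIP, KCNMB) carry no pore and change the trafficking or gating of pore-forming subunits. In cells that do not fire action potentials, potassium channels are known for roles in cell volume, calcium entry and proliferation.

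Poly(A) RNA was sequenced in 8 groups of 3 libraries. All cells carried a retroviral vector and were pooled stable lines rather than clones, and the study's methods describe the 3 libraries of a group as separate transductions of 1 cell line. EV was the empty vector, TAZ4SA and YAP5SA were TAZ and YAP with serines changed to alanine so that LATS kinases cannot phosphorylate them there, and TFE3 and CAMTA1 were the full-length transcription factors. TAZ-CAMTA1 and YAP-TFE3 were the fusion proteins of epithelioid hemangioendothelioma, a vascular sarcoma. The labels state that cells stayed confluent for 48 h before collection, with CAMTA1 cells sub-confluent instead. EVsub was the empty vector set titled sub-confluent and served as the control of CAMTA1.

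Levels are CPM, a gene's count scaled to its library's TMM-adjusted size, given per library or as mean ± SD (n = 3 libraries). Differences are log2 fold changes ± SE from edgeR's quasi-likelihood test, fitted to all 24 libraries. A gene was called at an adjusted p (Benjamini-Hochberg over all 19997 genes) under 0.05, and "rose" and "fell" are used only of called genes. Totals per library were 19700277 to 35287476 counts. CAMTA1, TFE3 and YAP1 mRNA were above EV in the groups named for them. WWTR1, which encodes TAZ, was at 181 CPM in TAZ-CAMTA1 and at 134 in the TAZ4SA group against 204 in EV, so the latter are called below the libraries labelled TAZ4SA. In YAP-TFE3 replicate 3, 1.86% of the genes tested lay over 1 log2 unit from the mean of the other libraries of the group, against at most 0.43% in any other library, and KCNE3, KCNG1, KCNJ11 and KCNQ5 were among them. Of the markers of the labelled tissue, mesenchymal VIM was at 464 to 1150 CPM, while adipocyte ADIPOQ was at 0 in every library and PLIN1 at 0.361 to 1.24 CPM. Other mesenchymal markers ranged from COL1A1, at 6.82 to 85.4 CPM, to FN1, at 785 to 6260. The sum of 6 (with COL1A2, THY1 and PDGFRB) was 4820 to 5710 CPM in EV and 5870 to 7570 in TAZ-CAMTA1. It was 1920 to 2920 CPM in the libraries labelled TAZ4SA and 2010 to 3610 in YAP5SA.

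Overlapping annotations matter here, because the use of strand in the counting was not stated. Of the 62 genes, 41 overlapped another gene, and 26 shared exon bases with one. Reads in shared bases cannot be assigned with certainty. KCND3 shared 5.34% of its exon bases with DDX20 on the other strand, which was at 32.0 CPM in EV, 31.6 in YAP5SA and 61.1 in the libraries labelled TAZ4SA. KCNAB2 shared 1.23% with NPHP4, which was at 21.7 CPM in EV and 11.5 in YAP-TFE3. KCNQ1 shared 3.98% of its exon bases with other genes, KCNQ1OT1 among them, at 13.3 CPM in EV and 12.7 in YAP-TFE3. KCNJ12 has a near-identical copy, KCNJ18, so its counts are also uncertain.

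Among genes compared per kilobase of exon, the auxiliary gene KCNE4, which encodes a subunit that inhibits several voltage-gated channels, had the highest level, at a mean of 21.4 CPM per kb over the 24 libraries. KCNG1, a modifier subunit with no current of its own, followed at 5.23 CPM per kb. Then came KCNN4, the intermediate-conductance calcium-activated channel, at 4.39, and KCNK5, an acid-sensitive tandem-pore channel, at 3.91. The highest inward rectifier was KCNJ12, at 1.28 CPM per kb. The order changed with the group: in YAP-TFE3 cells KCNAB2 reached 19.7 CPM per kb, against 0.572 in EV.

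The RefSeq promoters (GRCh38.p14, 250 bases before to 50 after an annotated start) of KCND3 and KCNK13, high in the TAZ4SA and YAP5SA groups, and of KCNAB2, high in YAP-TFE3, are shown so that the motif counts can be read against them. Capitals mark CACGTG, the E-box read by MiT/TFE factors, and none of these promoters held GGAATG, the core read by TEAD factors, or TGACTCA, the AP-1 site, on either strand. KCND3 has 2 starts in the table, of which the upstream is shown, and KCNAB2 has 4, of which the 1 with an E-box is shown, while which start was used was not measured.
KCND3 (chr1:111989619-111989918, minus strand): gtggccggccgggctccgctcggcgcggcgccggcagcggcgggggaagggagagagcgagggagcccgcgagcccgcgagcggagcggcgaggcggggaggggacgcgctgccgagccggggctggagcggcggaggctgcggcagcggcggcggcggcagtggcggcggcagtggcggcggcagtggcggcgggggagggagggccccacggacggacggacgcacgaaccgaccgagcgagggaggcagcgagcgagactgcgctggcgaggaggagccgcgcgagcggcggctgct
KCNK13 (chr14:90061744-90062043, plus strand): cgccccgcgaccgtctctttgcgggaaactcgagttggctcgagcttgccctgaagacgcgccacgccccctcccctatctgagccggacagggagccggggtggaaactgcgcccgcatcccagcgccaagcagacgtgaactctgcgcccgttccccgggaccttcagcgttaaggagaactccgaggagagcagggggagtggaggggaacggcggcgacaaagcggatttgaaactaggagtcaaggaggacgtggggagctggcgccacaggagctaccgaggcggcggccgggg
KCNAB2 (chr1:6034438-6034737, plus strand): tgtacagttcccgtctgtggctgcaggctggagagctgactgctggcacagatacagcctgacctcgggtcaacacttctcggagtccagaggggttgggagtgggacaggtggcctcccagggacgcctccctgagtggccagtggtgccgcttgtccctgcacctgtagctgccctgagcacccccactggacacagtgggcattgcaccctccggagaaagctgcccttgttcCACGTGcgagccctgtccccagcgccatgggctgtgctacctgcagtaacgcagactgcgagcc
The table held 74 promoters of 44 of the 62 genes. GGAATG was in 9 of the 74 (12.2%), against 14.0% of all 35116 promoters. TGACTCA was in 4 (5.41%, against 4.95%) and CACGTG in 6 (8.11%, against 7.26%). A match describes letters in this window only.

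The share of potassium channel genes called was close to that of all genes in most comparisons. In the libraries labelled TAZ4SA against EV, 16 of 61 were higher and 17 lower, where 25.1% and 24.2% of all genes were. In YAP5SA, 16 of 62 were higher and 13 lower (all genes 22.7% and 21.6%). In YAP-TFE3, 21 were higher and 15 lower (25.6% and 22.6%). TAZ-CAMTA1 had 3 higher and 1 lower of 61 (3.55% and 1.44%). None of the 62 was called in TFE3 against EV by edgeR, where 0.035% of all genes were, and 4 had an unadjusted p under 0.05. DESeq2 called 0 there too. EVsub against EV had 4 higher and 10 lower (19.8% and 17.1%), and CAMTA1 against EVsub 1 higher and 1 lower (1.26% and 0.57%). These comparisons share the EV or EVsub libraries. Over the 7 comparisons against an empty vector, 9 genes were called in none and 18 in 1. This tally was not made over all genes. It includes KCND3 in the libraries labelled TAZ4SA and genes that passed the count minimum only through a compared group. KCNQ3 was called in 5. Leaving out the genes that passed the count minimum only through a compared group, a choice made after seeing the data, gave 15 higher of 60 in the libraries labelled TAZ4SA, 15 of 61 in YAP5SA and 19 of 59 in YAP-TFE3, with the same numbers lower.

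**Figure D1:**
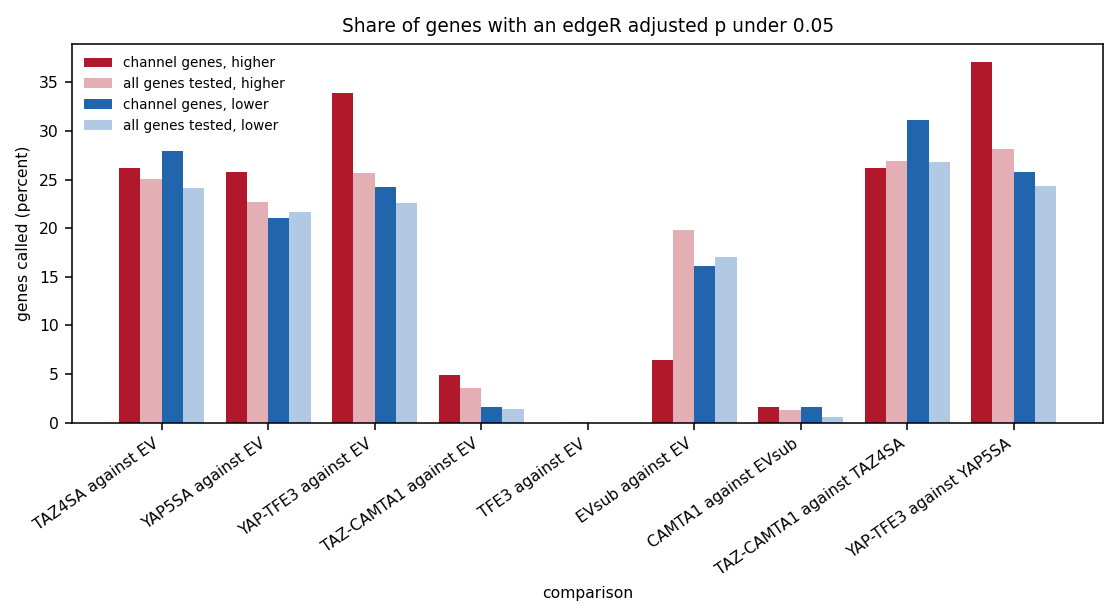
Percent of potassium channel genes (solid bars) and of all 19997 genes tested (pale bars) called higher (red) or lower (blue) in each comparison, at an edgeR adjusted p under 0.05. KCND3 is left out where TAZ-CAMTA1 or TAZ4SA libraries enter, and the solid and pale bars are near each other except in EVsub against EV, where 4 of 62 channel genes were higher, and in the YAP-TFE3 comparisons.

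**Figure D2:**
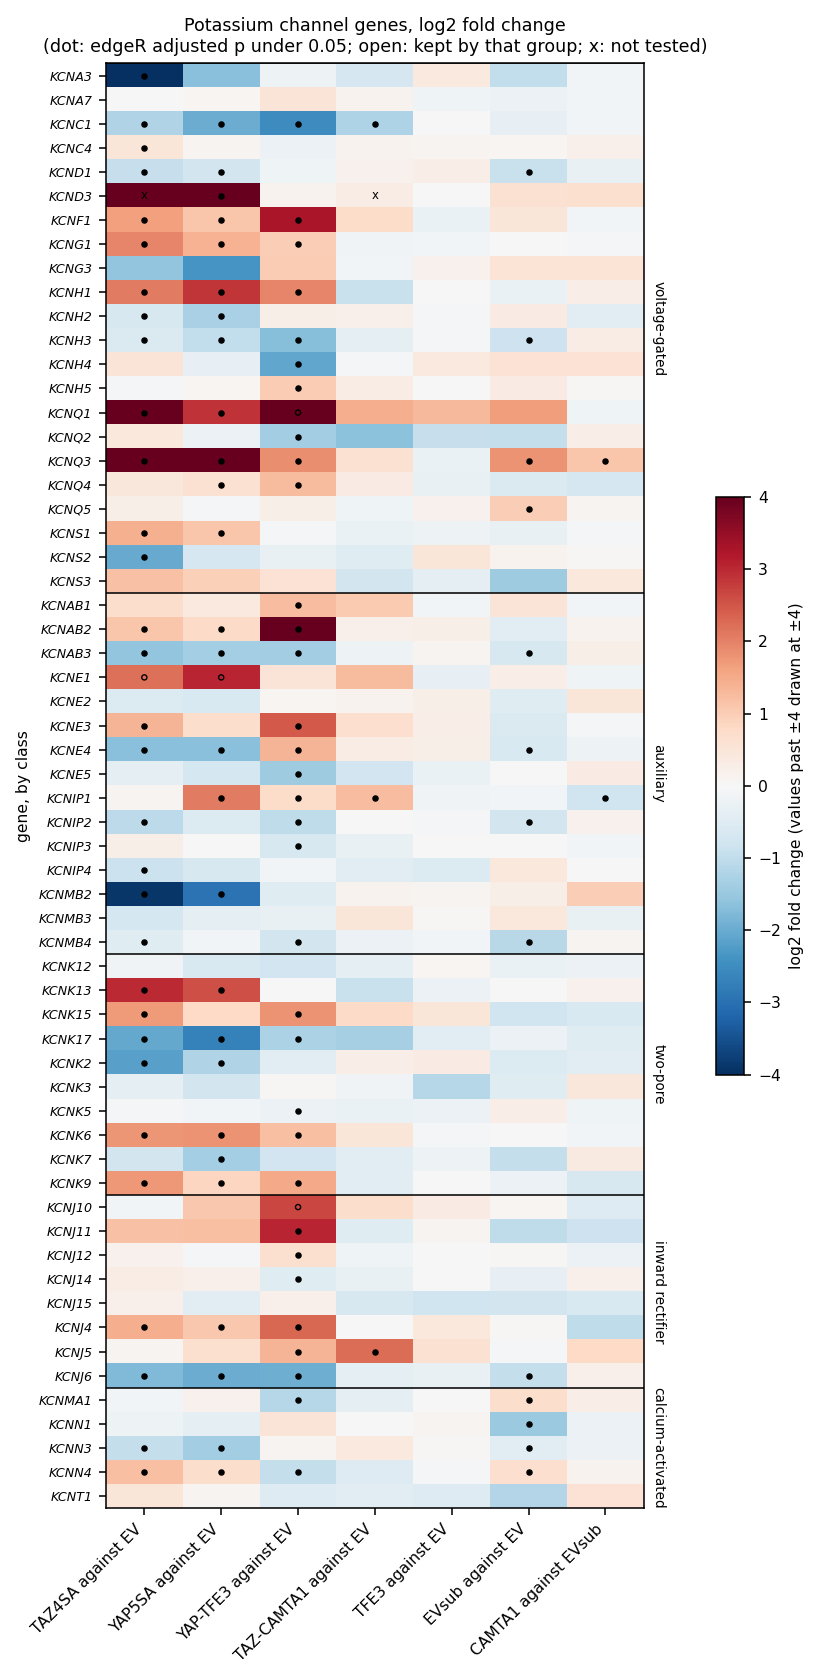
Log2 fold change of 60 of the 62 potassium channel genes (rows, by class) in 7 comparisons with an empty vector (columns). Dots mark an edgeR adjusted p under 0.05, open where the gene passed the count minimum only through that group, x marks KCND3 where it was not tested, and KCNA3 held 0 counts in the libraries labelled TAZ4SA, so that its color there is not a measured fold.

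The YAP5SA libraries and the libraries labelled TAZ4SA had high levels of a few voltage-gated and tandem-pore genes that were low elsewhere. KCND3 (ENSG00000171385, chr1:111770662-111989668, minus strand of GRCh38) encodes Kv4.3, a pore subunit of the transient outward current of heart and neurons. It was at 0.138, 0.0762 and 0.0485 CPM in EV, at 37.7, 47.5 and 57.0 in the libraries labelled TAZ4SA, and at 6.32, 6.09 and 8.51 in YAP5SA. The lowest YAP5SA library was far above the highest of every group but TAZ4SA, and in the other 6 groups no library exceeded 0.271 CPM. In YAP5SA against EV the difference was 6.18 ± 0.41 (95% interval 5.37 to 6.99, adjusted p = 1.35e-11, edgeR). EV held only 4, 2 and 1 counts of KCND3, which limits the precision of this fold. In the libraries labelled TAZ4SA the mean was 47.4 ± 9.64 CPM against 0.0875 ± 0.0458 in EV, as a description.

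KCND3 stood apart from its relatives. KCND1, which encodes the related Kv4.1 and was the second voltage-gated gene by level per kb, moved the other way. It was at 23.5, 25.0 and 25.2 CPM in EV, at 14.1, 14.6 and 9.83 in the libraries labelled TAZ4SA, and at 16.4, 17.0 and 11.5 in YAP5SA, with no overlap with EV in either. It fell by 0.93 ± 0.15 (adjusted p = 1.75e-05) and by 0.72 ± 0.15 (adjusted p = 0.000422) in edgeR. The KCNIP genes encode cytoplasmic partners of Kv4 channels. KCNIP1 was higher in YAP5SA (20.7 ± 1.47 CPM against 4.85 ± 1.25 in EV), with a difference of 2.08 ± 0.17 (adjusted p = 6.81e-10, edgeR). In the libraries labelled TAZ4SA it was at 5.23 ± 0.619 CPM and was not called. KCNIP2 fell there by 1.06 ± 0.30 (adjusted p = 0.00545, edgeR), from 1.28 to 0.604 CPM.

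KCNQ3, a subunit of the M-current that steadies neuronal firing, was at 0.207, 0.190 and 0.145 CPM in EV. It was at 6.71, 6.78 and 7.13 CPM in the libraries labelled TAZ4SA and at 6.84, 7.56 and 6.71 in YAP5SA. These 6 libraries lay within a narrow range and well above all others, of which the highest was a CAMTA1 library at 2.04 CPM. The differences from EV were 5.19 ± 0.32 (adjusted p = 4.52e-12) and 5.22 ± 0.32 (adjusted p = 3.56e-12) in edgeR. KCNQ3 also rose in YAP-TFE3, to 0.685 ± 0.168 CPM (1.86 ± 0.41, adjusted p = 0.000615, edgeR), and in EVsub against EV, to 0.655 ± 0.225 (1.79 ± 0.42, adjusted p = 0.00203).

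KCNK13 (ENSG00000152315, chr14:90061994-90185853, plus strand), which encodes the tandem-pore channel THIK-1, was at 0.966, 0.647 and 0.630 CPM in EV. It was at 6.47, 6.23 and 5.24 CPM in the libraries labelled TAZ4SA and at 4.91, 4.42 and 4.34 in YAP5SA, and at most 0.991 in any library of the other groups. It rose by 2.97 ± 0.19 (adjusted p = 9.5e-12) and 2.58 ± 0.20 (adjusted p = 1.51e-10) in edgeR. KCNK6, another tandem-pore gene, rose in both (1.75 ± 0.17 and 1.80 ± 0.17) and in YAP-TFE3 (1.19 ± 0.17), from 3.91 ± 0.426 CPM in EV to 13.3 ± 2.28, 13.8 ± 2.36 and 8.94 ± 0.899.

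The modifier subunits KCNG1, KCNS1 and KCNF1, which alter other voltage-gated channels when they assemble with them, were all higher in YAP5SA and in the libraries labelled TAZ4SA than in EV. KCNG1 was at 18.9, 15.6 and 16.9 CPM in EV, 68.4, 64.1 and 66.7 in the libraries labelled TAZ4SA and 38.9, 44.2 and 51.3 in YAP5SA. It rose by 1.95 ± 0.20 (adjusted p = 2.61e-08) and 1.39 ± 0.20 (adjusted p = 4.7e-06) in edgeR. In YAP-TFE3 its libraries were at 38.5, 45.2 and 18.5 CPM, the last below the highest EV library, and the difference was 0.99 ± 0.20 (adjusted p = 0.000235), or 1.29 without YAP-TFE3 replicate 3. KCNS1 rose by 1.43 ± 0.17 in libraries labelled TAZ4SA and 1.12 ± 0.17 in YAP5SA.

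**Figure D3:**
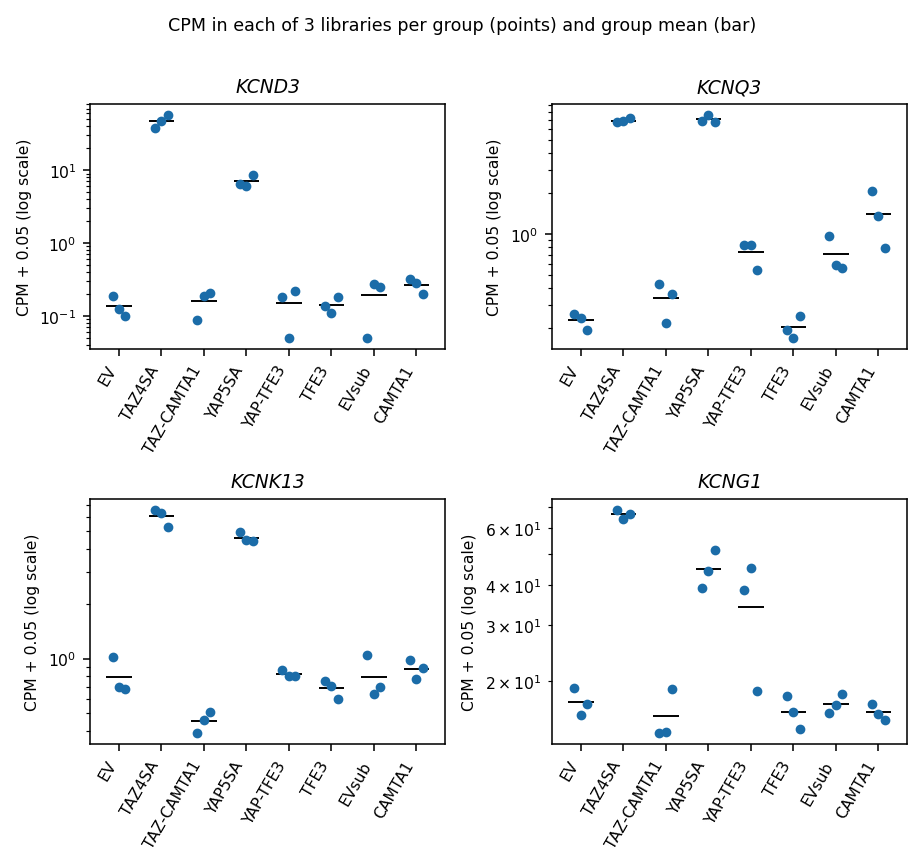
CPM of KCND3, KCNQ3, KCNK13 and KCNG1 in every library (points, 3 per group) with group means (bars), on a log axis after adding 0.05 CPM. The libraries labelled TAZ4SA and the YAP5SA libraries are the highest for KCND3, KCNQ3 and KCNK13, while KCNG1 is also raised in 2 of the 3 YAP-TFE3 libraries, at 38.5 and 45.2 CPM.

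Markers of other cell types moved in the same libraries. The summed CPM of 5 smooth muscle markers (ACTA2, CNN1, MYH11, TAGLN, DES) was 244 to 257 in the libraries labelled TAZ4SA and 203 to 314 in YAP5SA, against 21.6 to 26.9 in EV, with 3 and 4 of the 5 above EV in the group means. Most of the sum was TAGLN, at 236 and 244 CPM against 19.0 in EV, while ACTA2 was at 1.67 and 1.92 against 1.82. The sum of 5 cardiac markers was 3.66 to 7.81 and 2.13 to 9.77, against 0.228 to 0.436, mostly TNNT2, while NKX2-5, a defining cardiac factor, was at or near 0 CPM in every library. The sum of 5 neuron markers (SNAP25, SYT1, RBFOX3, STMN2, SYP) was 5.48 to 6.7 in the libraries labelled TAZ4SA and 2.78 to 3.04 in YAP5SA, against 6.47 to 7.51. Of these, SYT1, RBFOX3 and STMN2 were low throughout but above EV in both group means. The sum of 3 endothelium markers (PECAM1, CDH5, VWF) was 25.9 to 44.4 and 9.96 to 15.7, against 39.9 to 64.2, although VWF was above EV in both. The part of these markers in the channel results was not tested. In bulk RNA, more cells with a transcript and more transcript per cell cannot be told apart.

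Other genes fell in both of these groups. KCNE4 was at 74.1, 83.6 and 88.4 CPM in EV, 26.5, 28.3 and 22.9 in the libraries labelled TAZ4SA and 28.3, 27.8 and 21.9 in YAP5SA, with no overlap with EV. It fell by 1.67 ± 0.12 (adjusted p = 9.27e-11) and by 1.66 ± 0.12 (adjusted p = 1.04e-10) in edgeR. KCNJ6, a G protein-gated inward rectifier, fell by 1.77 ± 0.25 and 1.98 ± 0.25, from 6.57 ± 1.34 CPM to 1.91 ± 0.322 and 1.65 ± 0.0828. KCNK2, the mechanosensitive leak channel TREK-1, fell by 2.18 ± 0.27 and 1.21 ± 0.25, from 4.98 ± 0.615 to 1.10 ± 0.239 and 2.14 ± 0.313. The small-conductance channel gene KCNN3 fell by 0.96 ± 0.17 and 1.39 ± 0.17, while its relative KCNN4 rose by 1.19 ± 0.18 and 0.69 ± 0.18. KCNC1 and KCNH3 also fell in both groups. These changes were not all particular to the 2 groups: KCNE4, KCNJ6, KCNN3 and KCNH3 were also called lower, and KCNN4 higher, in EVsub against EV.

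Some low genes were nearly absent from these libraries. KCNA3, the Kv1.3 channel best known from lymphocytes, had 9, 10 and 7 counts in EV and 0 in each of the libraries labelled TAZ4SA, at least 2.82-fold lower when each of the latter is set to 3 counts. KCNMB2, a subunit of the large-conductance calcium-activated channel, held 20 counts in EV and 1 in the libraries labelled TAZ4SA, a CPM ratio of 19.5 (95% counting interval 3.12 to 810). This interval covers counting error only.

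YAP-TFE3 shared part of its high genes with YAP5SA and the libraries labelled TAZ4SA. KCNAB2, KCNF1, KCNG1, KCNH1, KCNJ4, KCNK6, KCNK9 and KCNQ3 were called higher than EV in all 3 groups. KCND3 and KCNK13 were not called in YAP-TFE3, where an auxiliary subunit led. KCNAB2 (ENSG00000069424, chr1:5990927-6101193, plus strand) encodes Kvβ2, a cytoplasmic subunit of Kv1 channels with an aldo-keto reductase fold. It was at 8.25, 8.95 and 12.4 CPM in EV and at 295, 358 and 365 in YAP-TFE3, and no library of another group exceeded 21.6 CPM. It rose by 5.12 ± 0.18 (adjusted p = 1.95e-16, edgeR), from 9.85 ± 2.20 to 339 ± 38.5 CPM. TFE3 alone gave 11.8, 8.13 and 14.2 CPM, which overlapped EV. In the libraries labelled TAZ4SA KCNAB2 was at 21.3 ± 0.282 CPM (1.12 ± 0.17, adjusted p = 6.17e-06, edgeR) and in YAP5SA at 16.5 ± 1.73 (0.76 ± 0.17, adjusted p = 0.000778), so all 3 YAP- or TAZ-derived sets named here were above EV by unequal amounts. Its paralog KCNAB3 moved the other way in YAP-TFE3, from 5.31 ± 0.557 to 2.04 ± 0.276 CPM, and fell by 1.38 ± 0.17 (adjusted p = 4.46e-07, edgeR). KCNAB3 also fell against EV in the libraries labelled TAZ4SA, in YAP5SA and in EVsub.

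Among voltage-gated genes, 8 of 24 were called higher and 4 lower in YAP-TFE3, where 25.6% and 22.6% of all genes were. The 8 include KCNQ1, and the 24 include KCNQ1 and KCNG3, which passed the count minimum only through YAP-TFE3. KCNQ1, the slow delayed rectifier of the heart, had 2, 0 and 0 counts in EV and 25, 43 and 50 in YAP-TFE3, a CPM ratio of 46.0 (95% counting interval 12.5 to 385), given as description because it passed the count minimum only through YAP-TFE3. KCNQ1 was also called in the libraries labelled TAZ4SA (36 counts in all, ratio 18.4, counting interval 4.74 to 158). KCNF1, a modifier subunit, was at 0.897, 0.952 and 0.630 CPM in EV and 6.95, 9.42 and 8.15 in YAP-TFE3, with no overlap, and rose by 3.28 ± 0.27 (adjusted p = 6.98e-10).

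Of the 8 inward rectifiers, 7 were called in YAP-TFE3 against EV, 5 higher and 2 lower, where 25.6% and 22.6% of all genes were. The median log2 fold change of the 8, with KCNJ10 included, was 1.00, against -0.01 over all genes, and is a description only. KCNJ4, a strong inward rectifier, was also called higher in YAP5SA and in the libraries labelled TAZ4SA. It was at 0.552, 0.724 and 0.824 CPM in EV and 3.09, 3.45 and 3.79 in YAP-TFE3. The rise in YAP-TFE3 was 2.31 ± 0.25 (adjusted p = 4.1e-08, edgeR). KCNJ10, the glial and epithelial Kir4.1, was at 0.150 ± 0.152 CPM in EV and 0.942 ± 0.226 in YAP-TFE3, and is among the 5 counted as higher although it passed the count minimum only through YAP-TFE3. KCNJ11, the pore of the ATP-sensitive channel of beta cells and muscle, was at 0.173, 0.152 and 0.388 CPM in EV and at 2.05, 3.23 and 0.434 in YAP-TFE3, where replicate 3 stood apart. Its difference was 3.04 ± 0.61 (adjusted p = 0.000226, edgeR), or 3.53 without YAP-TFE3 replicate 3 and 2.41 without replicate 2.

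The remaining 2 inward rectifiers that rose were KCNJ5 and KCNJ12. KCNJ12 rose by 0.63 ± 0.20, a call that was lost without YAP-TFE3 replicate 2 (0.42, adjusted p = 0.0973, edgeR). KCNJ6 fell by 1.96 ± 0.24. KCNJ14 fell by 0.50 ± 0.20, a call lost in 6 alternative fits, and GRWD1, which shares exon bases with it, went from 85.9 to 41.9 CPM. In TAZ-CAMTA1 KCNJ5 was the 1 inward rectifier of 8 called, where 3.55% of all genes were higher and 1.44% lower.

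KCNE4, lower in YAP5SA and in the libraries labelled TAZ4SA, was higher in YAP-TFE3, at 194, 216 and 220 CPM, and rose by 1.36 ± 0.12 (adjusted p = 1.58e-09, edgeR). KCNE3, a subunit of KCNQ1 in epithelia, was also called higher in the libraries labelled TAZ4SA. In YAP-TFE3 it was at 3.80, 4.90 and 1.59 CPM against 0.414, 0.495 and 1.02 in EV. It rose there by 2.46 ± 0.36 (adjusted p = 4.74e-06, edgeR), or by 2.82 without YAP-TFE3 replicate 3. KCNC1, the fast Kv3.1 channel, was at 0.747, 0.690 and 0.665 CPM against 3.83, 4.49 and 3.83, and fell by 2.53 ± 0.20 (adjusted p = 1.84e-10). KCNH3 fell by 1.69 ± 0.14, from 17.3 ± 0.507 to 5.37 ± 1.05 CPM. Both KCNC1 and KCNH3 were also called lower than EV in YAP5SA and in the libraries labelled TAZ4SA. In YAP-TFE3 the calcium-activated KCNMA1 fell by 1.15 ± 0.18 and KCNN4 by 0.95 ± 0.19. Of 5 adipocyte markers, FABP4 was at 0.633 CPM against 0 in EV, while PLIN1 was at 0.727 against 0.689, CIDEC was lower (0.0108 against 0.0599), LEP was at 0.0213 against 0 and ADIPOQ was at 0. The sum of the 5 was 0.925 to 1.79 CPM against 0.587 to 0.838. The part of these markers in the result was not tested.

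**Figure D4:**
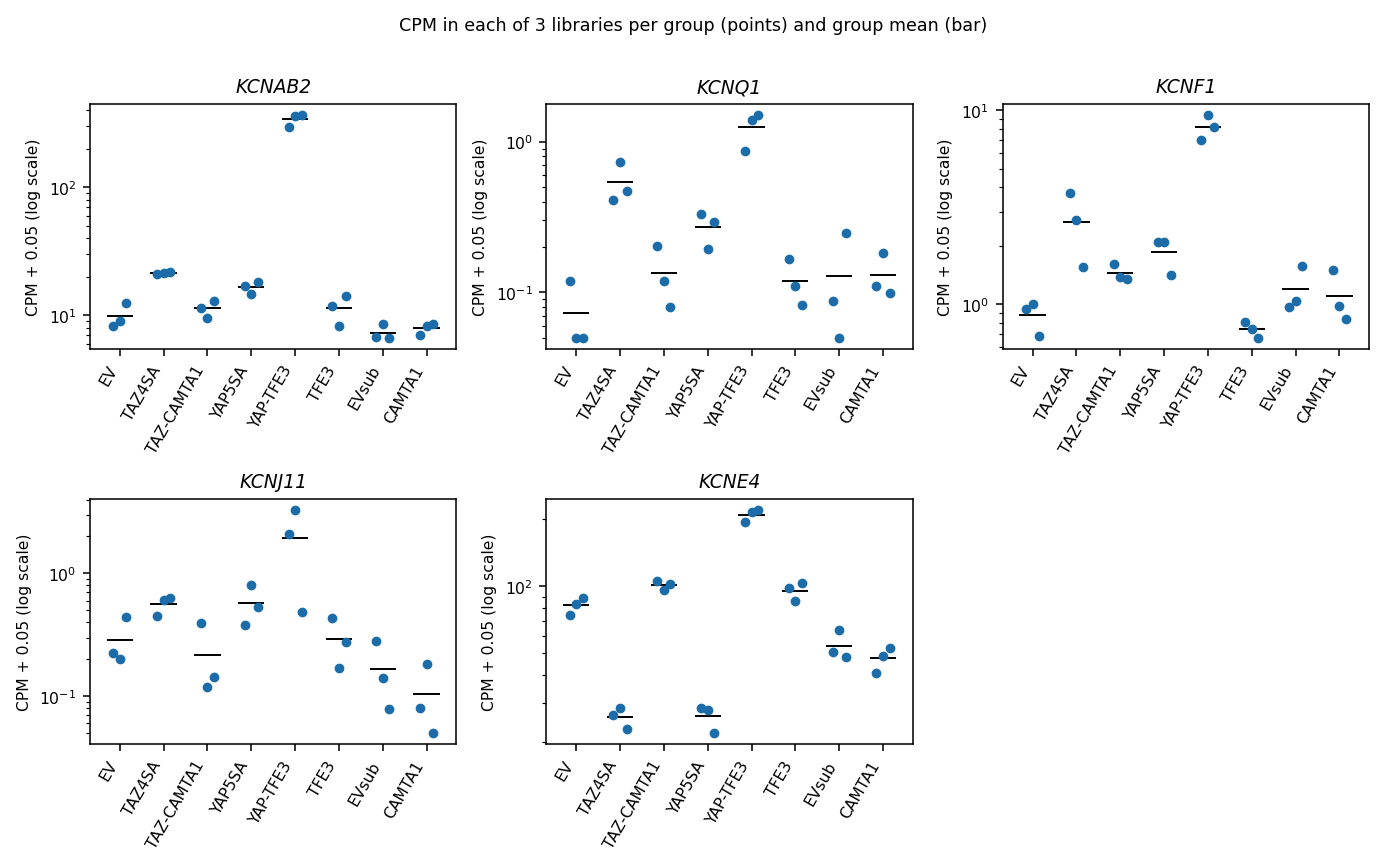
CPM of KCNAB2, KCNQ1, KCNF1, KCNJ11 and KCNE4 in every library (points, 3 per group) with group means (bars), on a log axis after adding 0.05 CPM. The YAP-TFE3 libraries are the highest for all 5 genes except that 1 YAP-TFE3 library of KCNJ11, at 0.434 CPM, lies among the other groups.

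TAZ-CAMTA1 against EV called 4 of the other 61 genes, of which 3 are described. KCNJ5, a G protein-gated inward rectifier of heart atria and adrenal cortex, was at 0.276, 0.305 and 0.533 CPM in EV and 2.16, 1.23 and 1.69 in TAZ-CAMTA1. The groups did not overlap, and KCNJ5 rose by 2.22 ± 0.30 (adjusted p = 2.82e-05, edgeR). KCNIP1 was at 4.62, 6.21 and 3.73 CPM in EV and 12.9, 11.6 and 10.1 in TAZ-CAMTA1 and rose by 1.24 ± 0.17 (adjusted p = 4.59e-05). KCNC1 was at 1.70, 1.99 and 1.51 CPM in TAZ-CAMTA1, below every EV library, and fell by 1.23 ± 0.18 (adjusted p = 5.98e-05). KCND3 was at 0.109 ± 0.0626 CPM in TAZ-CAMTA1, where no library held more than 0.154 CPM.

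CAMTA1 against EVsub called 2 genes. KCNIP1 was at 4.31, 4.19 and 5.0 CPM in EVsub and 2.04, 3.17 and 2.60 in CAMTA1, so that it was lower, where in TAZ-CAMTA1 it was higher than EV. It fell by 0.80 ± 0.19 (adjusted p = 0.0274, edgeR), and leaving out any 1 library of CAMTA1 or EVsub but CAMTA1 replicate 2 lost the call, with adjusted p of 0.0562 to 0.217. KCNQ3 was at 2.04, 1.32 and 0.736 CPM against 0.915, 0.541 and 0.511, which overlapped, and its difference of 1.12 ± 0.29 (adjusted p = 0.0441) was lost in 14 fits that left out 1 library, of which 4 left out a CAMTA1 or EVsub library, among them CAMTA1 replicate 1 (0.71, adjusted p = 0.417). It was also lost in 2 other fits.

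In sub-confluent against confluent EV cells, 4 of 5 calcium-activated genes were called, 2 higher and 2 lower, where 19.8% and 17.1% of all genes were. KCNMA1, the large-conductance BK channel, was at 30.8, 27.6 and 21.8 CPM in EV and 45.7, 38.6 and 46.8 in EVsub, and rose by 0.71 ± 0.18 (adjusted p = 0.00319, edgeR). KCNN4 was at 10.8, 10.7 and 10 CPM in EV and 16.7, 15.1 and 18.6 in EVsub, and rose by 0.68 ± 0.18 (adjusted p = 0.00438). KCNN1, a small-conductance channel, was at 1.18, 1.40 and 0.851 CPM against 2.97, 2.78 and 3.83, and fell by 1.5 ± 0.28 (adjusted p = 0.000269). KCNN3 fell by 0.43, a call lost in 6 alternative fits, among them without any 1 of the EVsub libraries.

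KCNMB4, the neuronal BK channel subunit, fell by 1.11 ± 0.20 (adjusted p = 0.000153, edgeR), from 5.74 ± 0.345 to 2.65 ± 0.190 CPM, so that 1 BK subunit rose and another fell. Among voltage-gated genes KCNQ5 rose by 0.99 ± 0.28 (adjusted p = 0.0084), from 2.58 ± 0.719 to 5.20 ± 1.22 CPM, but was not called without EV replicate 3 or without EVsub replicate 1 (0.81 in both, adjusted p = 0.054 and 0.0563). KCND1 fell by 0.88 ± 0.15 and KCNH3 by 0.82 ± 0.13. The smooth muscle markers summed to 63.7 to 99.9 CPM in EVsub against 21.6 to 26.9 in EV, most of it TAGLN, and their part in these results was not tested.

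Each fusion was also set against the group labelled for its first partner, the libraries labelled TAZ4SA or YAP5SA. TAZ-CAMTA1 had 16 of 61 genes higher and 19 lower than the libraries labelled TAZ4SA, where 26.9% and 26.8% of all genes were. YAP-TFE3 had 23 of 62 higher and 16 lower than YAP5SA, where 28.1% and 24.3% of all genes were, or 20 and 15 of 58 without the genes that passed the count minimum only through either group. In YAP-TFE3 against YAP5SA, KCND3 fell by 6.03 ± 0.38 (adjusted p = 4.77e-12, edgeR), from 6.98 ± 1.34 to 0.101 ± 0.0902 CPM. KCNQ3 fell by 4.58 ± 0.29 in TAZ-CAMTA1 and fell by 3.36 ± 0.25 in YAP-TFE3, and KCNK13 fell by 2.55 ± 0.19 in YAP-TFE3 (adjusted p = 6.99e-11). KCNE4 was higher in both, by 1.97 ± 0.12 in TAZ-CAMTA1 (adjusted p = 5.48e-12) and by 3.01 ± 0.13 in YAP-TFE3 (adjusted p = 5.12e-15).

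The difference between these 2 contrasts was tested within the same edgeR fit, and was called for 25 of 61 genes, where 29.8% of all genes were called, or for 24 of 57 without the genes that passed the count minimum only through 1 of these groups. KCNAB2 gave the largest (-5.27 ± 0.23, adjusted p = 6.93e-14): it was lower in TAZ-CAMTA1 than in the libraries labelled TAZ4SA (11.3 against 21.3 CPM) and higher in YAP-TFE3 than in YAP5SA (339 against 16.5 CPM). KCNF1 followed the same pattern of signs (-3.09 ± 0.37, adjusted p = 7.75e-07), with its TAZ-CAMTA1 part not called without TAZ4SA replicate 1 (-0.58, adjusted p = 0.095). KCNIP1 had the opposite signs (2.49 ± 0.24, adjusted p = 2.94e-08), at 11.5 CPM in TAZ-CAMTA1 against 5.23, and 8.09 in YAP-TFE3 against 20.7.

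**Figure D5:**
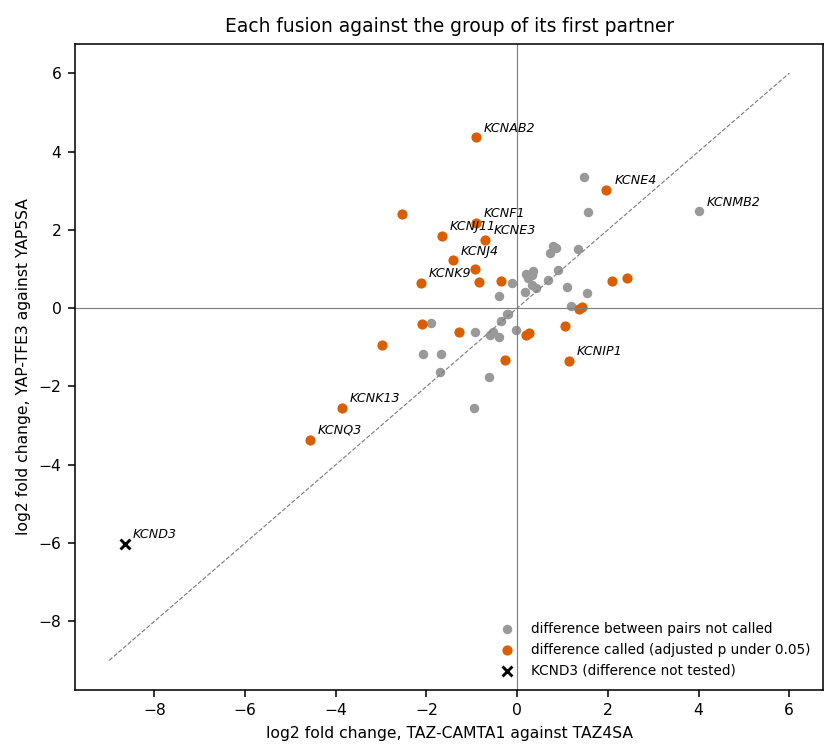
Log2 fold change of TAZ-CAMTA1 against the libraries labelled TAZ4SA (x axis) and of YAP-TFE3 against YAP5SA (y axis), 1 point per potassium channel gene, with equal change on the dashed line. Orange points are the 25 genes whose difference between the contrasts had an edgeR adjusted p under 0.05, KCND3 (cross) was not tested, and KCNA3 is left out because it held 0 counts in the libraries labelled TAZ4SA.

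Of 27 other genes of potassium transport and channel partners, listed for their known roles, 19 were tested. In the libraries labelled TAZ4SA 5 were called higher and 7 lower (25.1% and 24.2% of all genes), in YAP5SA 6 and 7 (22.7% and 21.6%), in YAP-TFE3 5 and 2 (25.6% and 22.6%), in EVsub 2 and 8 (19.8% and 17.1%), and in CAMTA1 against EVsub 1 and 0 (1.26% and 0.57%). TAZ-CAMTA1 and TFE3 had 0 called in edgeR. SLC12A2, the sodium-potassium-chloride cotransporter NKCC1, fell by 2.73 ± 0.10 (adjusted p = 2.38e-15) in the libraries labelled TAZ4SA and by 2.70 ± 0.10 in YAP5SA, from 202 ± 25.7 CPM to 30.5 ± 1.81 and 31.1 ± 1.31. The potassium-chloride cotransporter gene SLC12A4 rose by 1.04 ± 0.12 and 1.36 ± 0.12 in the same groups. HCN4, the cation channel of cardiac pacemaker cells, rose in YAP5SA from 0.0875 ± 0.0458 to 10.1 ± 0.889 CPM (6.71 ± 0.27, adjusted p = 2.34e-15, edgeR) and was at 2.19 ± 0.293 CPM in the libraries labelled TAZ4SA. LRRC55, a BK channel gamma subunit, was at 0.0369 ± 0.0381 CPM in EV and 2.50 ± 1.22 in YAP-TFE3, the group through which alone it passed the count minimum. It is among the 5 counted as higher in YAP-TFE3.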

How the data were processed

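Poly(A) libraries (stranded kit, paired-end) were described per the labels, and samples took their group and replicate number from the labels. Each library had its own table of unnormalized counts for Ensembl gene IDs, deposited as whole numbers, which the authors produced with bcbio-nextgen on hg38. The counter, whether it used strand, and how it treated multi-mapped reads are not given in the sources used here, and the authors' own tests used DESeq2 on another quantification. Of 60279 gene IDs, 56104 matched GENCODE release 44 (GRCh38), the source of symbols, exon lengths and overlaps.

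For the 19997 genes that averaged 5 counts or more, edgeR 4.0.16 (R 4.3.3) gave quasi-likelihood F tests from 1 fit to all 24 libraries, with a mean for each group and TMM scaling, with Benjamini-Hochberg adjustment over all genes tested. The test was first tried on simulated data. CPM is edgeR's CPM of the TMM-scaled library, and per-kilobase levels divide it by the exon length. An exact permutation test of 3 against 3 cannot give p below 0.1, so none is given. No molecular identifiers were described, so counting intervals cover counting error only.

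The members and lists were chosen with earlier results of these data known. Genes were named by rule: KCND3, up to 4 called members per direction and comparison with the largest change, no overlap between groups and a mean of at least 20 counts, the 2 highest per class by level per kilobase, and the 8 largest differences between the fusion contrasts. KCNA3, KCNIP2, KCNJ10, KCNMB2, KCNS1 and the partner genes were named after their values were seen, and some genes the rule names are not reported here. Alternatives were DESeq2 1.42.0, other scalings, other filters on low counts, a fit of the compared groups alone, a replicate block, a test against a log2 change of 1 and leaving out each library. Replicate numbers were not used as pairs in the main fit: in no comparison did all 3 correlations of same-numbered deviations exceed 0.1. The highest mean correlation was 0.129, in TAZ-CAMTA1 against TAZ4SA. Whether same-numbered libraries shared a batch was not tested. Promoters came from the RefSeq table of GRCh38.p14.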

Additional observations from a re-analysis of the deposited data

Results flagged for a closer look

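For 7 potassium channel genes, the fusion differed from the group labelled for its first partner to an unequal extent in the TAZ and YAP pairs. Each log2 difference of differences below is TAZ-CAMTA1 minus the libraries labelled TAZ4SA, less YAP-TFE3 minus YAP5SA, and each was called by the interaction term in edgeR. The values were -5.27 for KCNAB2, -3.5 for KCNJ11, -3.09 for KCNF1, -2.77 for KCNK9, -2.64 for KCNJ4, 2.49 for KCNIP1 and -2.44 for KCNE3. KCNK9, an acid-sensitive leak channel, was at 0.692 ± 0.0369 CPM in TAZ-CAMTA1 and 3.03 ± 0.254 in the libraries labelled TAZ4SA, but at 2.62 ± 0.700 in YAP-TFE3 and 1.68 ± 0.0402 in YAP5SA (n = 3 libraries each). The YAP-TFE3 against YAP5SA part of KCNJ11 was 1.85 and was not called without YAP-TFE3 replicate 2 (1.22, adjusted p = 0.0744, edgeR).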

How the results depend on the processing

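The counts of called potassium channel genes (KCND3 left out where TAZ-CAMTA1 or TAZ4SA libraries enter) were within 1.5 times of those reported under DESeq2, other scalings, other filters, the fit of the compared groups alone and the replicate block, except in CAMTA1 against EVsub, where total-count scaling and the fit of these groups alone each called 1 gene instead of 2. With the replicate block, 32 genes were called in the libraries labelled TAZ4SA against EV, 35 in YAP-TFE3 and 28 in YAP5SA. With DESeq2 these were 32, 34 and 28. Testing against a log2 change of 1 in size, a stricter null, called 1 gene in TAZ-CAMTA1 against EV, 14 in the libraries labelled TAZ4SA, 12 in YAP-TFE3, 11 in YAP5SA, 0 in EVsub, 0 in CAMTA1 against EVsub, 13 in TAZ-CAMTA1 against TAZ4SA, 13 in YAP-TFE3 against YAP5SA and 8 in the difference between these contrasts. Of all 19997 genes, this test called 47 higher and 2 lower in TAZ-CAMTA1, and 989 and 517 in the libraries labelled TAZ4SA. It called 1130 and 255 in YAP-TFE3, 972 and 469 in YAP5SA, 40 and 40 in EVsub, and 28 and 0 in CAMTA1. In TAZ-CAMTA1 against TAZ4SA it called 661 and 913, in YAP-TFE3 against YAP5SA 1008 and 780, and in the difference 201 and 660. Wherever it called a channel gene, the channel share was above that of all genes, as a description only. No conclusion is drawn from it, because genes that passed the count minimum only through a compared group were kept in. Leaving out each library in turn gave 3 to 6 genes in TAZ-CAMTA1 against EV, 30 to 34 in TAZ4SA, 32 to 36 in YAP-TFE3, 27 to 30 in YAP5SA, 12 to 17 in EVsub and 0 to 2 in CAMTA1 against EVsub, and 22 to 28 in the difference of the contrasts. In TFE3 against EV every alternative called 0. No named log2 fold change that was called reversed in any alternative. Low counts limit KCNQ1, KCNMB2 and KCNA3, and EV held 7 counts of KCND3 over its 3 libraries.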
